A study of Rattus norvegicus with 458 samples.

Results

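The kidney was compared, as 1 organ, with the other tissues of the same rats. It was represented by the 10 libraries labelled Kidney, the 10 labelled Cortex and the 10 labelled Medulla (dissected regions of the kidney), which together make 30 of the 215 small RNA libraries of the series. They were set against 165 libraries of 19 other tissue labels. The rule that defines the comparison left out the 10 libraries of pooled dorsal root ganglion (DRG). It also left out 10 libraries whose profiles are those of another organ than the labelled one: the Duodenum of Animal2, Animal4, Animal7 and Animal11, the Hippocampus of Animal2, Animal6 and Animal7, the Adrenal and the Uterus of Animal8 and the Ovary of Animal11. All tissues came from naive, untreated Sprague Dawley rats aged 12 to 13 weeks, 5 males (Animal2 to Animal6) and 5 females (Animal7 to Animal11). Each rat gave all 3 kidney libraries. The main test has no term for the rat, and the fit with one is given as an alternative.

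MicroRNAs (miRNAs) are small RNAs that guide Argonaute proteins to messenger RNAs, mainly through the seed near their 5′ end, and lower the output of the messages they pair with. The kidney filters blood in glomeruli of the cortex and recovers water and solutes along epithelial tubules that pass through cortex and medulla. The organ is known for miRNAs of epithelial cells (the miR-200 family, miR-192 and miR-194), for the miR-30 family, which is abundant in tubules and podocytes, and for miR-10 and miR-196, which are encoded inside the Hox gene clusters that pattern the body along its head to tail axis.

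The mature sequences that carry the results are printed here from RefSeq for the rat build GRCr8, which is not the build the authors aligned to, with the seed (bases 2 to 8) in capitals. Of the 85 miRNAs named by the rule for named genes, 79 had a mature sequence there. The first set shows the Hox cluster miRNAs, among which miR-196a-5p and miR-196b-5p share the seed AGGUAGU.
miR-10a-5p (chr10:81779730-81779752, plus strand): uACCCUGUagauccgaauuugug
miR-10b-5p (chr3:80035886-80035907, plus strand): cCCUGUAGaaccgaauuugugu
miR-196a-5p (chr7:135988900-135988921, plus strand): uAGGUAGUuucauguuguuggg
miR-196b-5p (chr4:82661149-82661170, minus strand): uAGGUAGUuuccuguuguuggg
The second set shows the other miRNAs with a high kidney level. In it miR-30a-5p and miR-30e-5p share the seed GUAAACA, and miR-653-5p and miR-489-3p lie beside each other on chromosome 4.
miR-30a-5p (chr9:33233946-33233967, plus strand): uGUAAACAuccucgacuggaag
miR-30e-5p (chr5:139637504-139637525, minus strand): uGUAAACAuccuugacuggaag
miR-653-5p (chr4:32647455-32647475, minus strand): uUGAAACAuucucuacugaac
miR-489-3p (chr4:32648063-32648084, minus strand): aUGACAUCacauauauggcagc
miR-203b-3p (chr6:137020716-137020737, minus strand): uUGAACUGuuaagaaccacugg
miR-192-5p (chr1:212994232-212994252, plus strand): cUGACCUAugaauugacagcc
miR-130a-3p (chr3:90229240-90229261, minus strand): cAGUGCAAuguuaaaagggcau
The third set shows the largest falls that had a sequence on chromosome 6, where they stand close together, and the 3 miRNAs with the smallest p-values between the sexes.
miR-673-3p (chr6:134306550-134306571, plus strand): uCCGGGACugaguucugugcac
miR-337-5p (chr6:134321170-134321190, plus strand): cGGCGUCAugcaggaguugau
miR-540-3p (chr6:134321475-134321496, plus strand): aGGUCAGAggucgauccugggc
miR-433-3p (chr6:134327421-134327442, plus strand): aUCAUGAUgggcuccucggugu
miR-127-3p (chr6:134328510-134328531, plus strand): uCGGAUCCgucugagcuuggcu
miR-341 (chr6:134347871-134347891, plus strand): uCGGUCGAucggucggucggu
miR-499-5p (chr3:164570616-164570636, plus strand): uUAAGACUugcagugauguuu
miR-135a-5p (chr7:28499221-28499243, minus strand): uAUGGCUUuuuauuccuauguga

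Results are given on 2 scales. A level is given in CPM, the share of a miRNA in the counts of its library scaled to a common total. The kidney level of a rat is the mean CPM of its Kidney, Cortex and Medulla libraries, and the level in other tissues is the mean CPM over the other tissue labels of that rat. A log2 fold change is the edgeR estimate for the summed kidney counts of a rat against the mean of the log levels of the 19 other labels. A miRNA held almost wholly by a few tissues has a high mean CPM over the other tissues and a low mean log level, so its CPM ratio and its log2 fold change can differ in size or sign, and both are given. A name without a count in some tissue has no finite log level there. This was so for 514 of the 1316 names tested, of which 54 had no kidney count, and their log2 fold changes are no bounds. Counts were assigned to miRNA names by the authors and cover bulk RNA, so that fewer cells of a type and less RNA per cell cannot be told apart.

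Kidney libraries held between 2243745 and 8943451 counts and the others compared between 376401 and 17725805. The RNA integrity number (RIN) of the kidney RNAs was 7.47 on average, between 6.3 and 8.1, and 5 of 30 lay below 7. That of the 165 others was 7.96, between 4.9 and 9.9, with 16 below 7, and the part of this difference in the results was not tested beyond leaving out kidney libraries below 7, which gave 482 calls. The libraries run on lane 8 of flow cell C2BUMACXX stood apart, and lane 8 below means that lane. In them the 5′ end of the most counted sequence of each miRNA held 35.7 to 52.3% of counts over a set of 60 miRNAs (13 libraries), against 77.3 to 98.3% in 182 others. That sequence was taken over all libraries. Of the kidney libraries, the Kidney and the Medulla of Animal7 were run there, at 39.8 and 41.1%, while the other 28 lay between 85.6 and 92.7%. Leading counts are therefore also given without that lane.

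Of 1316 names tested, 373 were higher in the kidney than in the mean of the other tissues (28.3%) and 120 were lower (9.12%), together 37.5%, at an adjusted p below 0.05 (edgeR quasi-likelihood test, Benjamini-Hochberg adjustment). Without lane 8 there were 388 higher and 116 lower of 1328 names, and with the 10 left out libraries kept under their labels there were 280 and 113 of 1266. Over the 802 names with counts in every tissue, 265 were higher and 120 lower. The median log2 fold change of all names was 0.08 with upper quartile scaling. It was 0.58 with TMM scaling, where 564 names were higher (42.9%) and 82 lower (6.23%), and -0.47 with RLE scaling, where 205 were higher (15.6%) and 242 lower (18.4%). DESeq2 gave 191 higher (14.6%) and 432 lower (33.1%) at a median of -0.64. The limma test of the ratio of mean CPM gave 119 higher (9.04%) and 814 lower (61.9%). By mean CPM, 81 names were above the other tissues in all 10 rats (6.16%) and 502 were below them (38.1%). The split into higher and lower thus depended on the scale.

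The kidney profile was dominated by few miRNAs. The 10 most counted names held 81.5% of the kidney counts, and 19 names held 90% of them. The first was miR-10a-5p with 26.4%. It was followed by miR-10b-5p at a mean of 197946 CPM, miR-22-3p at 104756 CPM, miR-30a-5p at 71412 CPM and miR-192-5p at 50123 CPM. The other 5 were miR-26a-5p (44716 CPM), miR-143-3p (30034 CPM), miR-27b-3p (20670 CPM), miR-30e-5p (16078 CPM) and miR-378a-3p (15027 CPM). For miR-22-3p the scale mattered. Its log2 fold change was 1.11 (adjusted p = 3.54e-16), whereas by the ratio of mean CPM it did not pass (0.043, adjusted p = 0.63). Its level was 80678 to 136622 CPM in the kidney and 92641 to 106572 CPM in the other tissues, higher in 7 of 10 rats. By contrast miR-143-3p, a smooth muscle miRNA, was lower in the kidney in all 10.

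miRNAs of the Hox clusters were higher in the kidney. All 11 members tested passed the threshold, where 28.3% of all names were higher. Their median log2 fold change was 5.24 against 0.08 for all names, and all 11 remained higher under TMM, RLE and DESeq2. By the ratio of mean CPM 10 were higher and 0 lower, at a median of 1.99, where 9.04% and 61.9% of all names were. In 6 of the 11 some other tissue held no count. By mean CPM, 10 of 11 were above the other tissues in all 10 rats, where 6.16% of all names were. The summed level of the 11 was 374961 to 534572 CPM in the kidney and 43116 to 87143 CPM in the other tissues. The ranges did not overlap.
The level of miR-10a-5p, which lies in the HoxB cluster, was 198152 CPM in the lowest, 267561 CPM in the median and 309346 CPM in the highest rat, against 17680, 27291 and 29184 CPM in the other tissues. Every kidney value of miR-10a-5p was above the mean over the other tissues of every rat, at 7.48 to 17.4 times within a rat. Its log2 fold change was 5.15 ± 0.12 (SE; adjusted p = 7.01e-86).
The level of miR-10b-5p, from the HoxD cluster, was 175864 to 224453 CPM in the kidney and 25339 to 57806 CPM in the other tissues (log2 fold change 4.91 ± 0.12, adjusted p = 1.2e-84). The kidney was not the highest tissue for it. The adrenal held 335318 CPM and the uterus 209827 CPM.
For miR-196b-5p, from the HoxA cluster, the kidney values were 513 to 645 CPM and those of other tissues 35.9 to 107 CPM, and the log2 fold change was 7.41 ± 0.18 (adjusted p = 1.08e-84). The largest log2 fold change of all names of at least 10 CPM was that of miR-196a-5p, 7.57 ± 0.18 (adjusted p = 7.01e-86), at 146 to 224 CPM in the kidney and 31.8 to 51.8 CPM elsewhere. Both were higher still in another tissue, miR-196b-5p in the uterus (696 CPM) and miR-196a-5p in the soleus muscle (296 CPM).

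**Figure D1:**
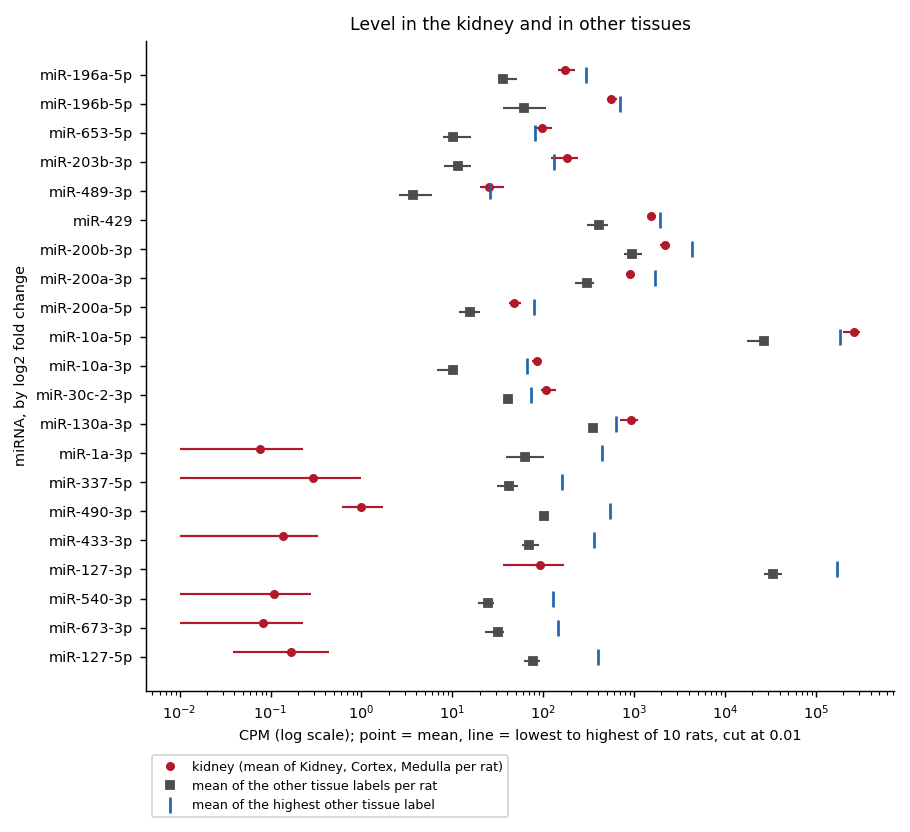
Mean CPM (log axis) of the 21 miRNAs with the largest differences and those above every other tissue at 10 kidney CPM or more. They are ordered by log2 fold change, and miR-218a-1-3p, at 7.12 CPM in the kidney, is not shown. Red points are the kidney and grey squares the other tissues, each with a line from the lowest to the highest of 10 rats (cut at 0.01 CPM), and blue bars are the highest other tissue label. For miR-10a-5p the red line of 198152 to 309346 CPM lies to the right of the blue bar at 184069 CPM, whereas for miR-196a-5p the blue bar at 296 CPM lies beyond the kidney.

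A high mean over tissues does not make the kidney the highest tissue, so the kidney was set against the tissue with the highest fitted level for each name. Only 24 of 1316 names had a fitted kidney level above every other tissue, and 6 of them passed the threshold (0.456%), the same 6 without lane 8. Among the 251 single miRNAs of at least 10 CPM in the kidney, 12 had the highest fitted level there and 7 the highest mean CPM. The 6 were miR-653-5p, miR-218a-1-3p, miR-10a-5p, miR-10a-3p, miR-30c-2-3p and miR-130a-3p.
The difference of miR-653-5p was 1.61 ± 0.41 on the log2 scale against the biceps (adjusted p = 0.000226). Its level was 79.6 to 126 CPM in the kidney. The brainstem reached 53.6 to 212 CPM, which overlaps the kidney, and its libraries had an upper quartile scaling factor of 3.76 (median), against 1.00 for the kidney. With TMM scaling miR-653-5p was 1.69 above the brainstem (adjusted p = 0.000115), and with RLE scaling its call was lost.
For miR-10a-5p the difference was 0.95 ± 0.26 against the adrenal (adjusted p = 0.000528), and for its other arm, miR-10a-3p, it was 0.78 ± 0.26 (adjusted p = 0.00448). The adrenal levels of miR-10a-5p were 155186 to 211889 CPM and overlapped the lowest kidney value of 198152 CPM. The third tissue, the ileum, held 52746 CPM.
The difference of miR-218a-1-3p was 1.22 ± 0.49 against the hippocampus (adjusted p = 0.0167), although its mean CPM was higher there (10.8 CPM) than in the kidney (7.12 CPM). The hippocampus libraries had an upper quartile scaling factor of 3.59 (median), against 1.00 for the kidney. With TMM scaling, with RLE scaling and on the first flow cell alone miR-218a-1-3p was not called.
The smallest differences were those of miR-30c-2-3p (0.43 ± 0.17, adjusted p = 0.0128) and miR-130a-3p (0.35 ± 0.15, adjusted p = 0.0279), both against the heart. The kidney levels of miR-130a-3p were 703 to 1102 CPM and those of the heart 579 to 682 CPM, with no overlap. The ovary, which has the highest mean CPM of the other tissues, held 282 to 835 CPM and overlapped the kidney. With the rat as a replicate block, which pairs the samples of a rat, the call of miR-130a-3p was lost (0.32 ± 0.21 against the uterus, adjusted p = 0.141). For miR-203b-3p, at 122 to 240 CPM in the kidney and 72.8 to 198 CPM in the liver, the difference of 0.43 ± 0.32 did not pass (adjusted p = 0.196). The number of names above every other tissue was 17 with TMM scaling and 2 with RLE scaling (miR-203b-3p and miR-30c-2-3p), 3 with the 10 libraries kept, and 11 with the Kidney label alone.

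**Figure D2:**
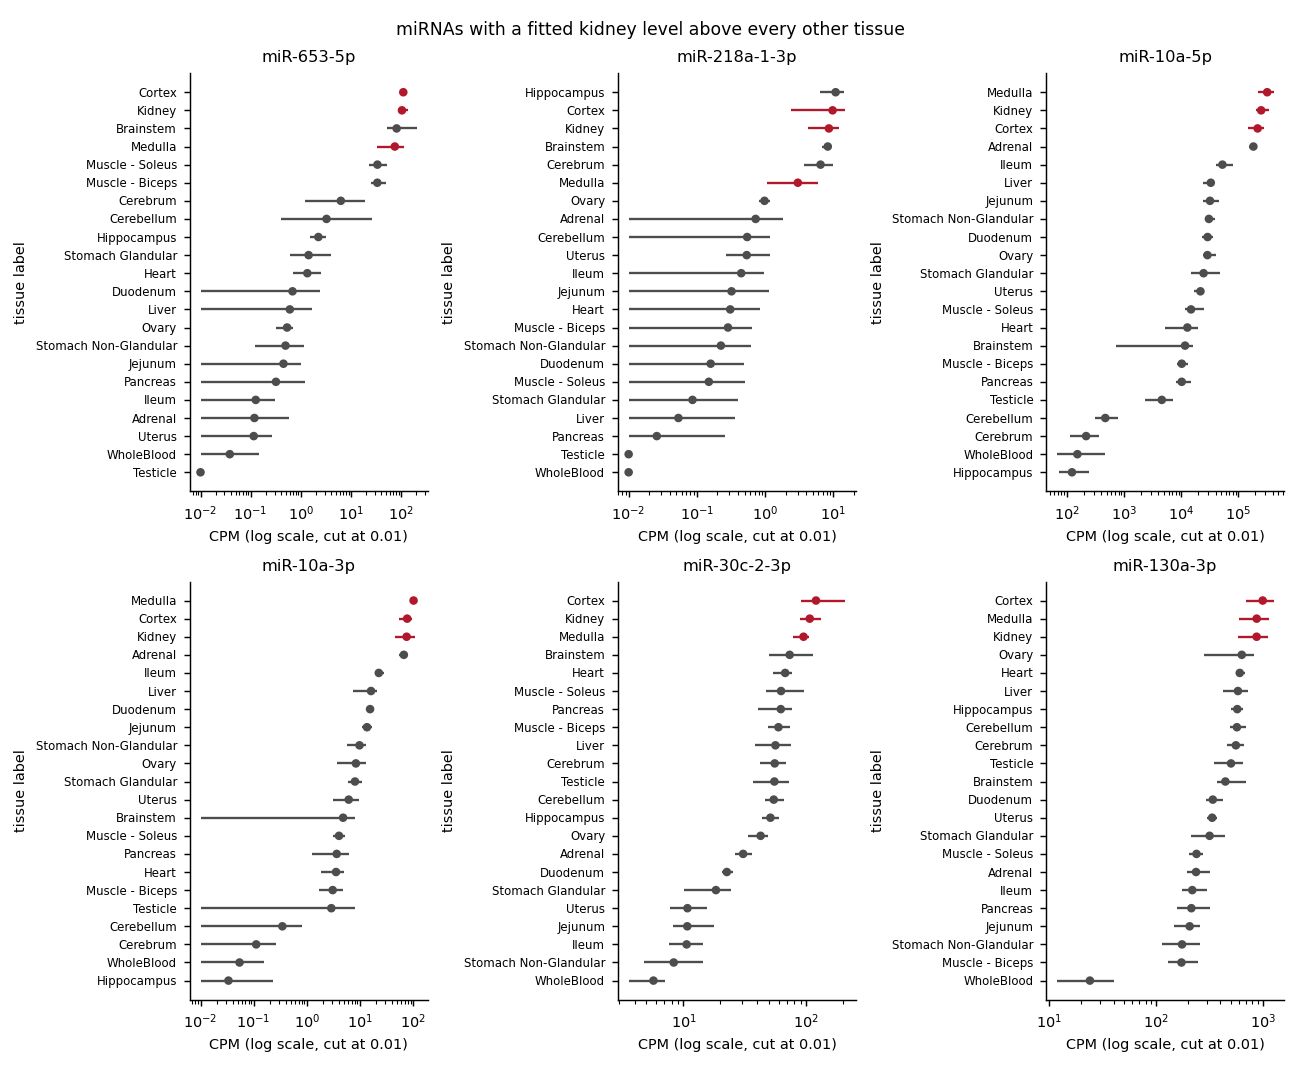
Mean CPM by tissue label (log axis, points) of the 6 miRNAs that passed the threshold against the highest other tissue, with lines from the lowest to the highest rat (cut at 0.01 CPM) and the 3 kidney labels in red. The kidney labels hold the first 3 places for miR-10a-5p, miR-10a-3p, miR-30c-2-3p and miR-130a-3p, while the brainstem stands among them for miR-653-5p and the hippocampus above them for miR-218a-1-3p.

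The epithelial miRNAs were next. All 9 members of the miR-200 family, which represses the transcription factors Zeb1 and Zeb2 and keeps cells epithelial, were higher on the log scale, with a median log2 fold change of 5.05. By mean CPM, 5 of the 9 were above the other tissues in all 10 rats and 4 were below them. Of all names, 28.3% were higher on the log scale, and 6.16% and 38.1% were above and below in all 10 rats.
The 5 belong to 1 cluster (miR-200b, miR-200a and miR-429). The level of miR-429 was 1385 CPM in the lowest, 1533 CPM in the median and 1765 CPM in the highest kidney, against 306 to 513 CPM in the other tissues (log2 fold change 5.52 ± 0.16, adjusted p = 9.26e-76). That of miR-200b-3p was 1932 to 2509 CPM against 778 to 1218 CPM (5.51 ± 0.16, adjusted p = 2.79e-75), and that of miR-200a-3p was 823 to 977 CPM against 223 to 367 CPM (5.51 ± 0.16, adjusted p = 3.16e-73). None of the 3 overlapped with the other tissues. In gut or pancreas each of them was higher than in the kidney, miR-200b-3p at 4345 CPM in the ileum and miR-200a-3p at 1719 CPM in the pancreas.
The other 4 belong to miR-141 and miR-200c. The level of miR-141-3p was 409.5 CPM in the kidney and 17730 CPM in the pancreas, and its mean over other tissues was 1375 CPM although its log2 fold change was 3.12 ± 0.12 (adjusted p = 2.93e-58).
Of the miR-192 and miR-194 family, 5 of 6 members were higher and 1 was lower (median 3.58), and the 5 remained higher under TMM, RLE and DESeq2. By the log2 ratio of mean CPM the family was split into 3 higher and 3 lower, where 9.04% and 61.9% of all names were.
The level of miR-192-5p was 33946 CPM in the lowest, 47365 CPM in the median and 69156 CPM in the highest kidney, against 33518, 39381 and 47014 CPM in the other tissues, and it was higher in 9 of 10 rats. These ranges overlapped. The ileum held 220745 CPM and the jejunum 183383 CPM, whereas the adrenal held 295 CPM and the heart 540 CPM. Its log2 fold change was 4.39 ± 0.09 (adjusted p = 1.48e-91). The member that fell was the entry miR-215, at 28.6 CPM in the kidney and 386398 CPM in the jejunum, with a log2 fold change of -3.29 ± 0.73 (adjusted p = 5.17e-05).
Within the kidney miR-192-5p varied by region. It was 50793 to 98824 CPM in the Cortex libraries and 5087 to 48990 CPM in the Medulla libraries, which do not overlap. The opposite order was seen for miR-10a-5p, at a mean of 218518 CPM in Cortex and 320922 CPM in Medulla.
miR-203b-3p followed Cortex as well, at 266 CPM there and 99.8 CPM in Medulla. Its level was 9.39 to 29.6 times that of the other tissues within a rat (log2 fold change 6.32 ± 0.16, adjusted p = 8.59e-81). Outside the kidney and the liver (132 CPM) its next highest tissue was the jejunum with 10.9 CPM. miR-205, a marker of stratified epithelium, showed a different regional order, with 105 CPM in Kidney, 93.7 CPM in Medulla and 22.3 CPM in Cortex.

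The miR-30 family was raised as a whole. All 11 members were higher (median log2 fold change 1.18), where 28.3% of all names were. Under RLE and DESeq2 10 of 11 were higher, where 15.6% and 14.6% of all names were. By mean CPM 10 were above the other tissues in all 10 rats, where 6.16% of all names were. The summed level of the family was 105089 to 125153 CPM in the kidney against 45131 to 55063 CPM. The most abundant, miR-30a-5p, was 65721 CPM in the lowest, 70881 CPM in the median and 75989 CPM in the highest kidney and 21502 to 28250 CPM in the other tissues. These ranges were well apart, and the kidney had the highest mean of the 20 tissues, ahead of the heart with 51313 CPM. Its log2 fold change was 2.19 ± 0.09 (adjusted p = 3.96e-55), and against the heart 0.26 ± 0.15, which did not pass (adjusted p = 0.0987). For miR-30e-5p the kidney was at 14381 to 18484 CPM and the heart, at 26784 CPM, was higher.
The 3 tested members of the pair miR-489 and miR-653, which share an intron of the calcitonin receptor gene Calcr, were all higher (median 5.88), and each was above the other tissues by mean CPM in all 10 rats. The level of miR-489-3p was 20.2 to 37.1 CPM in the kidney and 2.61 to 5.91 CPM elsewhere (log2 fold change 5.88 ± 0.26, adjusted p = 1.43e-49). Its brainstem mean of 25.9 CPM was close to the kidney mean of 25.4 CPM, as for miR-653-5p, and the 2 miRNAs were without counts in 1 tissue.
For miR-204-5p, encoded in Trpm3, the scale decided the direction. The log2 fold change was 0.45 ± 0.17 (adjusted p = 0.0211), turned to -0.12 under RLE, and by CPM the kidney (240 to 448 CPM) was below the other tissues (1158 to 2521 CPM) in all 10 rats, with 12188 CPM in the cerebellum.
A list of 14 names drawn up by the study for the kidney, its cortex or its medulla was higher in all 14 (median 4.65), but it was chosen on these same libraries and is not independent evidence.

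Lists of miRNAs known from injury, growth and broad expression showed smaller differences. Of 15 miRNAs studied in kidney injury and fibrosis, 12 were higher and 1 lower (median 0.81), 8 and 1 under RLE. Of all names, 28.3% were higher and 9.12% lower, and 15.6% and 18.4% under RLE. By the ratio of mean CPM 5 of the 15 were higher and 5 lower, where 9.04% and 61.9% of all names were. The log2 fold change of miR-21-5p was 0.79 (adjusted p = 3.25e-10), and its call was lost by the ratio of mean CPM, with organs weighted equally and with the 10 libraries kept. Its level was 5881 to 9312 CPM in the kidney and 5993 to 8707 CPM elsewhere, higher in 5 of 10 rats. By contrast miR-199a-5p was higher in 9 of 10 rats (a mean of 199.6 against 142 CPM) and miR-34a-5p, a target of p53, was lower in 10 of 10 (19.3 against 221 CPM).
Of 17 members of the clusters miR-17-92 and miR-106b-25, which are linked to proliferation, 11 were higher and 1 lower with upper quartile scaling, but 1 higher and 7 lower with RLE. For the miR-23, miR-27 and miR-24 clusters these counts were 7 and 0 of 9, and 0 and 2 under RLE, and for the let-7 family 9 and 2 of 18, and 3 and 7 under RLE. The directions of these 3 lists are therefore not given. Within them miR-27b-3p was 19245 to 22022 CPM in the kidney and 17077 to 20532 CPM elsewhere, above the other tissues of the same rat in 10 of 10 rats.

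**Figure D3:**
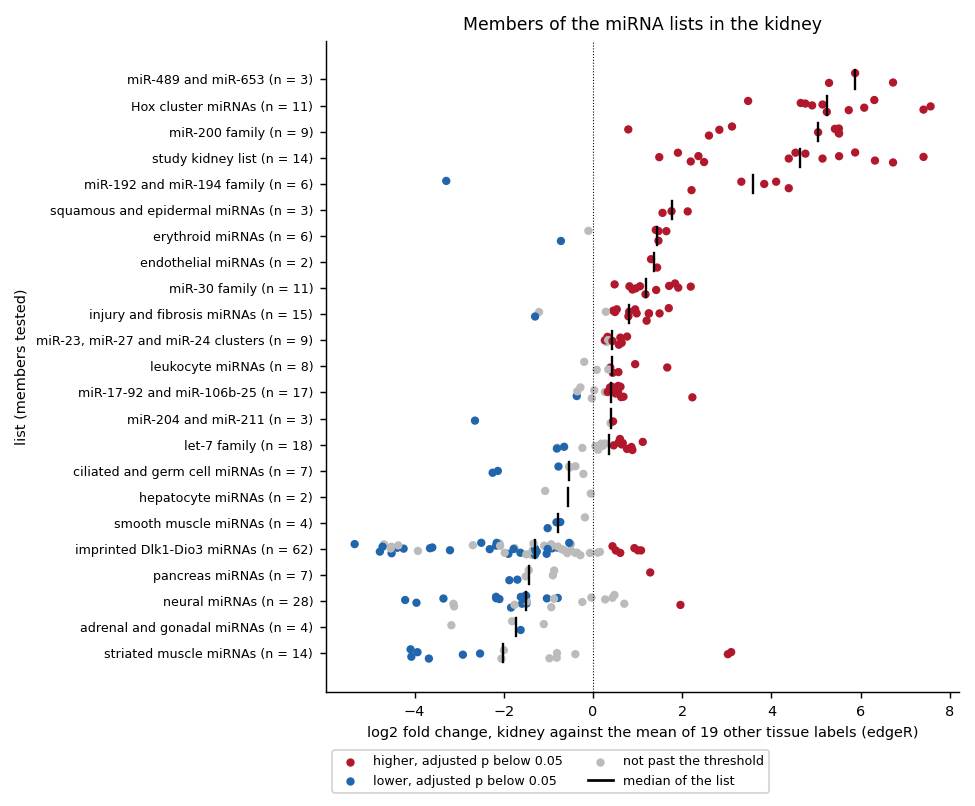
Log2 fold change (edgeR, kidney against the mean of 19 other tissue labels) of every tested member of 23 lists, 1 point per miRNA, red for higher, blue for lower and grey for not past an adjusted p of 0.05, with the list median as a black bar. The Hox cluster, miR-489 and miR-653 and miR-200 lists lie at medians of 5.05 to 5.88, and the neural, striated muscle and imprinted lists have medians between -2.03 and -1.30.

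Markers of the cells that a kidney sample could hold besides its own epithelium were then read. Of all names tested, 28.3% were higher and 9.12% lower. These shares were 15.6% and 18.4% under RLE, 42.9% and 6.23% under TMM, and 9.04% and 61.9% by the ratio of mean CPM. Endothelial miR-126a-5p and miR-126a-3p were both higher (median 1.37), also under TMM, RLE and DESeq2, at a summed 8654 to 10542 CPM against 5840 to 7250 CPM. Smooth muscle miR-143 and miR-145 were lower in 3 of 4 members (1 higher and 1 lower under TMM), at 24860 to 34741 CPM against 161221 to 215608 CPM, with a mean of 840799 CPM in the non-glandular stomach for miR-143-3p alone.
Of 6 erythroid miRNAs, 4 were higher and 1 lower on the log scale, but the summed level was 185 to 653 CPM in the kidney and 992 to 1936 CPM elsewhere. This sum leaves out reads counted jointly for miR-3107-5p and miR-486-5p, at 3044 CPM in the kidney and 64195 CPM elsewhere. The entry of miR-486-5p alone held 60.4 CPM in the kidney. This mean was raised by Animal7, at 366 CPM, where the other rats were at most at 42.8 CPM. The Kidney and Medulla libraries of Animal7 were run on lane 8. The level of miR-451-5p, the red blood cell miRNA, was 130 to 314 CPM in the kidney and 5052 CPM in whole blood. Leukocyte miRNAs were higher in 5 of 8 (2 higher and 2 lower under RLE), at 1366 to 1776 CPM against 1436 to 1781 CPM. Of these miR-146a-5p was above the mean of the other tissues, at 311 to 595 CPM against 161 to 223 CPM (1.66 ± 0.15, adjusted p = 1.2e-20). The kidney was not the highest tissue for it, at a mean of 450 CPM against 563 CPM in the liver and 477 CPM in the heart.
Markers of unrelated tissues were low. All 28 neural miRNAs tested were below the other tissues by mean CPM in all 10 rats, where 38.1% of all names were. The summed level of the 28 was at most 591 CPM against 15000 to 21273 CPM. On the log scale 15 were lower and 1 higher, miR-218a-5p (14 and 6 under TMM). miR-137-5p was at 0 in every kidney library.
Striated muscle miRNAs were lower in 6 and higher in 2 of 14. By mean CPM 12 of 14 were below the other tissues in all 10 rats, and the ratio of mean CPM gave 0 higher and 12 lower. The 2 were the arms of miR-499, which lies in a slow myosin gene, with miR-499-5p at 67.2 to 216 CPM in the kidney, 1034 CPM in the soleus and 919 CPM in the heart. Its direction turned by the ratio of mean CPM (-0.20), at 123 CPM in the kidney and 131 CPM elsewhere. In contrast miR-133a-3p was 36.6 to 72.4 CPM in the kidney against 289152 CPM in the biceps, and miR-206-5p and miR-208b-5p were at 0 in every kidney library.
Of the 2 hepatocyte miRNAs neither passed the threshold, at 0.465 to 8.48 CPM for miR-122-5p in the kidney and 33952 CPM in the liver. Of 7 pancreas miRNAs, 2 were lower and 1 higher. The higher one was miR-375-3p, known from islet and gut endocrine cells, at 599 CPM in the kidney and 37203 CPM in the pancreas. Its log2 fold change was 1.28, but by the ratio of mean CPM it was lower (-2.67), as were all 7, and its call was lost with the 10 libraries kept.
Of 4 adrenal and gonadal miRNAs, 1 was lower and 0 higher, at a summed 3.87 to 5.45 CPM, and miR-202-3p was at 0. Of 7 ciliated and germ cell miRNAs 3 were lower, and all 3 squamous miRNAs were higher on the log scale, whereas by the ratio of mean CPM 2 of them were lower.

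Of the 8 largest falls, 4 were members of the list of the imprinted Dlk1-Dio3 region, a cluster expressed from the maternal chromosome, whose miRNAs are abundant in brain and adrenal. Of 62 members tested, 27 were lower and 6 higher (median -1.30), where 9.12% and 28.3% of all names were. With RLE scaling 32 were lower and 0 higher, and with TMM 20 and 8. By mean CPM 60 of 62 were below the other tissues in all 10 rats, where 38.1% of all names were. Their summed level was 417 to 709 CPM in the kidney against 39419 to 58430 CPM in other tissues. The 60 members with a mature sequence lie on chromosome 6 within 265 kb (chr6:134314744-134579828). Of the 8 largest falls 6 had a mature sequence, and 5 of these stood within 22.0 kb on that chromosome, 4 of them inside that span.
The most abundant of them, miR-127-3p, was 36.4 CPM in the lowest, 67.6 CPM in the median and 169 CPM in the highest kidney, against 27143, 34378 and 42695 CPM in the other tissues. No kidney value came near those. Its log2 fold change was -4.78 ± 0.28 (adjusted p = 2.18e-36), with 169188 CPM in the hippocampus and 75229 CPM in the adrenal.
The lowest log2 fold change was that of its other arm, miR-127-5p (-5.35 ± 0.33, adjusted p = 1.13e-20), at 0.0385 to 0.439 CPM in the kidney and 62.2 to 91.6 CPM elsewhere. Next were miR-673-3p (-5.09), miR-540-3p (-4.87) and miR-433-3p (-4.72), each at or below 0.333 CPM in every kidney. Of these, miR-673-3p and miR-540-3p are not in the list. The position of miR-540-3p is inside the span, and that of miR-673-3p is before it, from chr6:134306550. The span is only that of the listed members and does not bound the imprinted region, so the list may leave out members of it.
Of the other large falls, miR-490-3p was 0.618 to 1.74 CPM in the kidney and 548 CPM in the heart (-4.52 ± 0.38, adjusted p = 1.83e-22), and miR-1a-3p, of the muscle miR-1 family, was at most 0.227 CPM in the kidney (-4.43). The call of miR-1a-3p was lost without lane 8 and on the first flow cell alone, and those of miR-127-5p, miR-540-3p, miR-433-3p and miR-337-5p on the first flow cell alone.

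Female and male kidneys were compared over 681 names. In females 16 names were higher (2.35%) and 14 lower (2.06%), together 4.41%, and 136 had an unadjusted p below 0.05. All 5 females lay above all 5 males for 9 names (1.32%), and all 5 males above all 5 females for 57 names (8.37%). The median count of the libraries was 4846994 in females and 5458696 in males, and the RIN was 7.54 ± 0.434 and 7.40 ± 0.455 (SD).
The smallest p was that of miR-499-5p, which was 67.2, 67.8, 72.5, 74.4 and 95.8 CPM in males and 134, 163, 168, 175 and 216 CPM in females. Every female was above every male. Its log2 difference was 1.36 ± 0.14 (adjusted p = 0.00056), and it was of this direction in the Kidney, Cortex and Medulla means alike.
The second was miR-135a-5p, at 13.2, 27.4, 30.2 and 30.4 CPM in 4 males and higher in Animal2, and 2.07, 3.25, 3.77, 4.53 and 6.37 CPM in females, a log2 difference of -2.62 ± 0.32 (adjusted p = 0.00136). No female reached the lowest male.
The third was miR-341 of the imprinted region, at 0.677 to 3.81 CPM in males and 7.57 to 30.4 CPM in females (3.45 ± 0.48, adjusted p = 0.00266). The groups did not overlap here either. These 3 passed the threshold in all 16 alternative settings.
The names that follow were chosen after their values were seen. The other arm of miR-135a, miR-135a-3p, went the same way (-3.10 ± 0.45, adjusted p = 0.00266), as did miR-504, at 46.8 to 77.6 CPM in males and 15.2 to 26.9 CPM in females (-1.25 ± 0.18, adjusted p = 0.00266). The most abundant kidney miRNA was among the calls. The level of miR-10a-5p was 198152 to 245979 CPM in males and 289143 to 309346 CPM in females (0.57 ± 0.09, adjusted p = 0.00548). This call was lost with the Kidney label alone (adjusted p = 0.467). Of the imprinted region miR-434-5p (2.32 ± 0.38) and miR-136-3p (2.41 ± 0.43) were also higher in females, so that 3 of 36 tested members were higher and 0 lower, at a list median of -0.04.
None of the 19 neural, 5 erythroid, 9 leukocyte, 2 endothelial or 4 smooth muscle miRNAs tested was called between the sexes, and neither was the 1 adrenal and gonadal miRNA tested. With only 4.41% of all names called, the absence of calls in lists this short is no result about these cells. Of other cell type lists, 2 of 3 striated muscle miRNAs (the arms of miR-499), the 1 pancreas miRNA tested (miR-375-3p) and 1 of 5 ciliated and germ cell miRNAs (miR-34c-5p) were higher in females.
The difference between the sexes in the kidney was then tested against the mean difference in 16 other tissues of both sexes, over 1057 names. It differed for 7 names (0.662%), 6 higher (0.568%) and 1 lower (0.0946%), of which miR-341 (3.56 ± 0.36), miR-136-3p (2.49 ± 0.36), miR-434-5p (2.43 ± 0.34), miR-136-5p (1.601 ± 0.39) and miR-434-3p (1.24 ± 0.31) are imprinted and shifted toward females in the kidney. The imprinted list as a whole was not shifted, with 5 of 60 tested members higher, 0 lower and a median difference of 0.08. Some of these kidney levels were low. Means in males and females were 0.638 and 3.06 CPM for miR-434-5p, and 1.51 and 4.02 CPM for miR-136-5p. In the other tissues they were 280 and 291 CPM, and 247 and 262 CPM. In the other tissues miR-341 was 511 to 696 CPM in males and 634 to 895 CPM in females. The other 2 were miR-135a-5p (-2.94 ± 0.53) and miR-499-5p (1.94 ± 0.39).
The first 3 and miR-499-5p passed in all 13 alternatives, miR-136-5p in 9 and miR-434-3p in 6. For miR-135a-5p the contrast did not pass without lane 8 or without Animal8, where the fit gave no usable standard error, and it passed in the other 11.

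**Figure D4:**
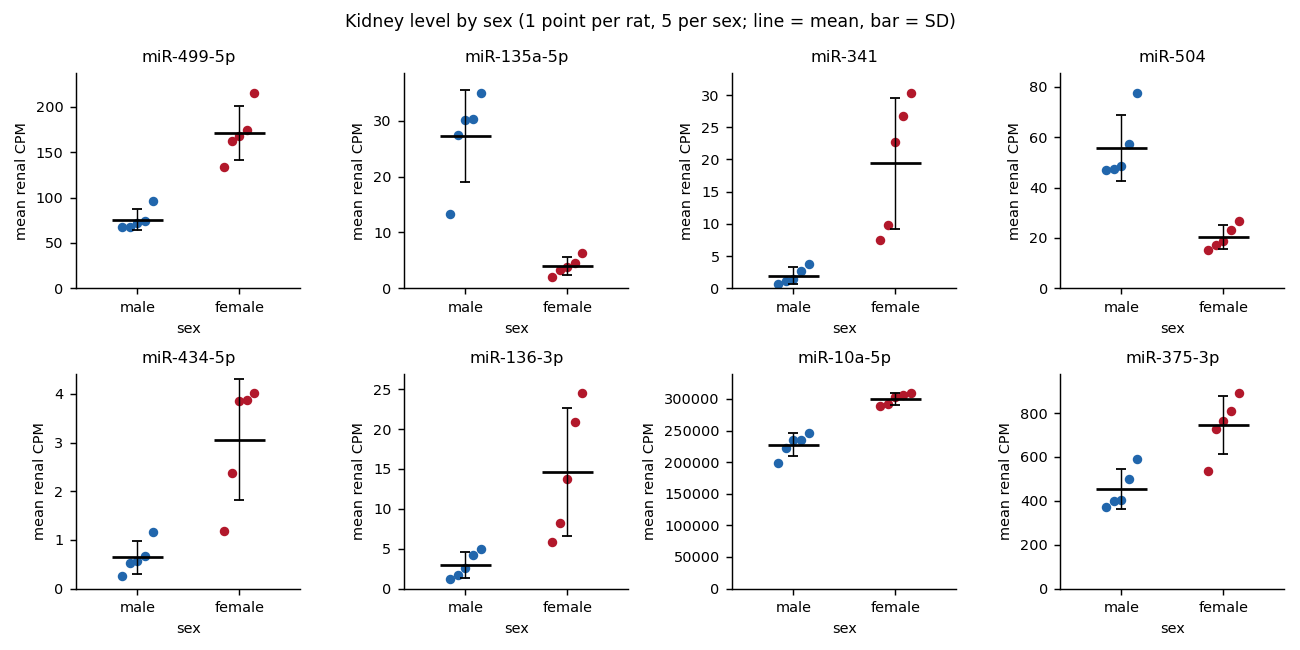
Mean CPM over the 3 kidney libraries of each rat, 5 males in blue and 5 females in red, with the group mean as a line and the SD as a bar, for 8 of the 30 miRNA names called between the sexes. The female points of miR-499-5p (134 to 216 CPM) lie above all male points (67.2 to 95.8 CPM), those of miR-135a-5p lie below, and those of miR-375-3p overlap.

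The ends of the reads were examined last, because a shift of the 5′ end by a base moves the seed. In the kidney the most counted sequence of miR-10b-5p had other bases 2 to 8 than the RefSeq form printed above.
miR-10b-5p, most counted kidney sequence, as DNA with bases 2 to 8 in capitals: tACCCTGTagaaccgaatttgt
miR-10a-5p, most counted kidney sequence, in the same notation: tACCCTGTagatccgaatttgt
Bases 2 to 8 of both are the same. This form made up 72.3 to 75.6% of the kidney counts of miR-10b-5p (median 73.8%), and its 10a counterpart 59.3 to 62.2% of those of miR-10a-5p (median 60.8%), libraries of lane 8 aside.
Within each rat, the share of counts at the 5′ end of a miRNA's most counted sequence was compared between the kidney and the mean of the other tissues. The test was an exact two-sided sign-flip test. The end was defined by the first 8 bases of that sequence, which was chosen anew over the libraries of each setting. With all libraries 0 of 60 miRNAs passed an adjusted p of 0.05, and 2 had an unadjusted p below 0.05. Without lane 8, an alternative chosen after seeing the data, 11 of 55 passed (20%), 6 with a higher share in the kidney and 5 with a lower one. For 9 of them all 10 rats went the same way, where the exact p of 0.00195 is the smallest that 10 rats allow. In these 5′ end data the kidney of Animal7 was represented by its Cortex library alone once lane 8 was left out. The same holds for the sequence shares above.
The largest gain was that of miR-203a-3p, at 65.6 ± 1.96% (SD) in the kidney and 56.8 ± 1.66% elsewhere, a difference of 8.83 percentage points. The largest loss was that of miR-411-5p, at 38.4 ± 1.93% against 45.6 ± 1.11%, for an end that is not the most counted one in the kidney, which held 54.5 to 61.7% there. The most abundant of the 11 moved less. The share of miR-10b-5p was 2.27 points higher (10 of 10 rats), that of miR-10a-5p 1.33 points higher (9 of 10) and that of miR-192-5p 2.24 points lower (10 of 10).

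**Figure D5:**
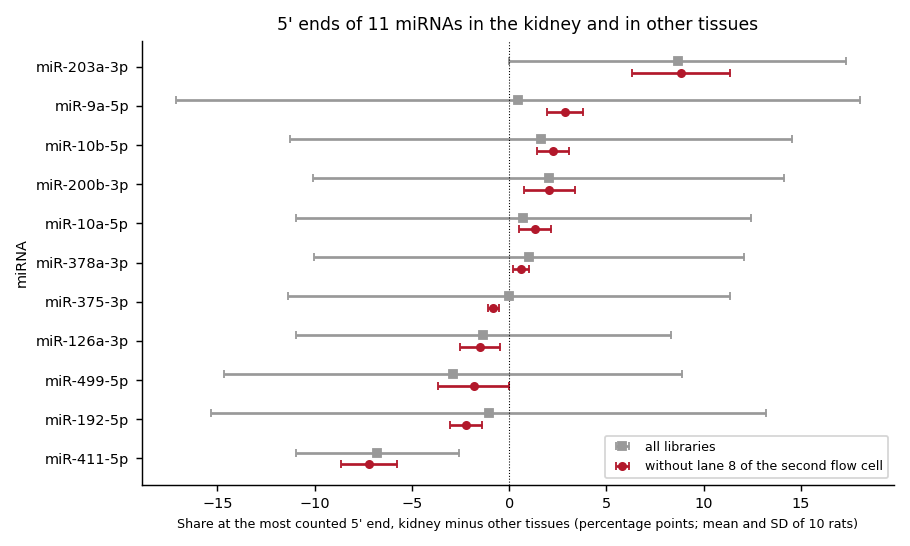
Share of counts at the 5′ end of the most counted sequence over the libraries used, kidney minus other tissues in percentage points, for the 11 miRNAs that passed without lane 8, as mean and SD of 10 rats. Grey squares use all libraries and have long bars that reach 0 for all but miR-411-5p, red points leave out lane 8 and have short bars, from -7.19 for miR-411-5p to 8.83 for miR-203a-3p.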

How the data were processed

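Small RNA libraries were sequenced in several runs. Per the labels and the study's methods, the authors removed adaptors with cutadapt 1.4.1, discarded short reads, combined identical sequences and assigned them to miRNA precursors with miRDeep2. The deposited values are raw read counts per miRNA name and run, and per isomiR sequence and run, without normalization. Of 458 runs 14 were set aside, and the rest were summed per library over 7534 names. Depth per library is given with the results, and it covers counting error only.

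The 3 kidney libraries of a rat were summed to 1 sample and fitted with 1 sample per other tissue and rat (175 samples, 20 tissue groups) by edgeR 4.0.16 in R 4.3.3 (quasi-likelihood test, upper quartile scaling, filterByExpr, Benjamini-Hochberg adjustment over all names tested, threshold 0.05). The sexes were compared over the 10 kidney samples. Shares of 5′ ends were tested by exact sign-flip permutation over rats, with at least 50 counts of a miRNA. They came from 205 runs, on flow cells that included D2C4RACXX and C2BUMACXX. DESeq2 1.42.0 and limma 3.58.1 (pseudocount 1) served as alternatives, and tables were made in Python 3.11.15.

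Named miRNAs were those with the largest rises and falls past the threshold at 10 CPM or more, those above every other tissue, the leading sex differences, the 10 most counted and members of the lists. The kidney definition, the rule and the 23 lists were chosen with earlier results of these data known. The same rats gave all tissues, so replicate numbers pair the samples. The median correlation of deviations was 0.0243 for samples of the same rat (165 pairs) and -0.0034 for different rats (1485 pairs). On simulated data with a log2 change of 2 set in 200 of 966 names, the kidney comparison recovered 99.5% with 8 calls among unchanged names, and that between the sexes 94.5% of 200 of 970 names with 11. The test against the highest other tissue recovered 87% of 100 raised names. Before the change each simulated name had the same level in all tissues and a common dispersion, unlike the data, so these rates need not hold there.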

Additional observations from a re-analysis of the deposited data

Results flagged for a closer look

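Among 85 groups of kidney values examined, 6 held a rat far from the others, where chance gives about 1 in 20 groups. The entry miR-486-5p leaves out reads counted jointly with miR-3107-5p, at a kidney mean of 3044 CPM. The kidney level of miR-486-5p was 366 CPM in Animal7 and at most 42.8 CPM in the other rats, and 2 of the 3 libraries of Animal7 were those of lane 8. That of miR-122-5p was 8.48 CPM in Animal6, with the next rat at 1.70 CPM. For miR-145-5p Animal4 stood at 317 CPM, above the next at 247 CPM, and for miR-199a-5p Animal5 was lowest at 157 CPM, below the next at 194 CPM. Animal10 was highest for miR-7b, at 0.134 CPM against 0.0429 CPM, and for miR-1-3p, at 0.517 CPM against 0.275 CPM. Their causes were not tested.

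The difference between females and males in the kidney, less the mean of that in 16 other tissues, passed the test for 7 names (edgeR, Benjamini-Hochberg adjustment over 1057 names). On the log2 scale it was 3.56 for miR-341 (adjusted p = 1.5e-14), 2.43 for miR-434-5p (adjusted p = 3.47e-08) and 2.49 for miR-136-3p (adjusted p = 6.53e-08). It was -2.94 for miR-135a-5p (adjusted p = 3.76e-05) and 1.94 for miR-499-5p (adjusted p = 0.000479). It was 1.601 for miR-136-5p (adjusted p = 0.0113) and 1.24 for miR-434-3p (adjusted p = 0.0186). The cause of these differences was not tested.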

How the results depend on the processing

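The counts of names called depended on the filter, on scaling and on how other tissues were averaged. Against the other tissues 564 names were higher with TMM, 205 higher and 242 lower with RLE, 191 and 432 with DESeq2, and 593 higher with no filter. The first flow cell alone called 298 (248 higher, 50 lower), the limma ratio of mean CPM 933 (119 higher, 814 lower), and limma on mean log2(CPM + 1), chosen after seeing the data, 807 (534 lower). The replicate block, which pairs samples of a rat, gave 486 calls (366 higher, 120 lower), and 5 names above the highest other tissue, without miR-130a-3p. That last count was 17 with TMM, 2 with RLE, 3 with the 10 libraries kept, 11 with the Kidney label and 3 on the first flow cell. Calls between the sexes were 46 with RLE, 86 with DESeq2, 165 with no filter and 10 with the Kidney label. Leaving out each rat gave 18 to 42 of them, with 19 without Animal2 and 18 without Animal8, and 5 to 7 for the difference from other tissues. The 5′ end test called 11 without lane 8, chosen after seeing the data. With the limma ratio these miRNAs turned lower: miR-194-5p (-0.68), miR-499-5p (-0.20), miR-135a-5p (-1.95), miR-205 (-0.74), miR-218a-5p (-0.99), miR-203a-3p (-0.60), miR-144-3p (-0.26), miR-144-5p (-1.48), miR-451-5p (-0.98), miR-375-3p (-2.67), let-7e-3p (-0.040), let-7e-5p (-0.061), miR-92a-1-5p (-0.21), miR-142-5p (-0.084), miR-541-5p (-2.16), miR-29a-3p (-0.42), miR-204-5p (-2.49), miR-9a-5p (-5.45), miR-92a-3p (-0.44), let-7f-5p (-0.16) and let-7c-5p (-0.37). RLE and DESeq2 turned miR-142-5p (-0.00068 and -0.00067), miR-541-5p (-0.079 and -0.078), miR-29a-3p (-0.083 and -0.084), miR-204-5p (-0.12 in both), miR-92a-3p (-0.16 in both), let-7f-5p (-0.36 in both) and let-7c-5p (-0.46 in both). Single settings turned miR-541-5p (-0.72, Medulla label), miR-92a-3p (-0.14, organs weighted equally), miR-25-3p (0.57 with TMM, 0.26 without whole blood), miR-217-5p (0.34) and miR-216a-5p (0.53), the last pair on the first flow cell. The causes were not tested.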
